A study of Mus musculus with 8 samples.

Results

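Mucosa of the rectum was compared with mucosa of the middle colon of the mouse, on all 8 of the 8 arrays of the series, taken as 4 pairs of 1 rectum and 1 colon array. The pairs were formed from the tissue and group labels alone and from no measured value. Each pair stood for 1 group of male mice: wild-type control (WT control), wild-type after isolation (WT stress), interleukin 18 knockout control (IL18ko control) and interleukin 18 knockout after isolation (IL18ko stress). All mice lived with their brothers until 10 to 12 weeks of age. Controls were then killed, and stressed mice were caged alone before they were killed, for 8 days by the description of the design and for 16 days by the treatment protocol, a difference that could not be settled. Colon was taken between 2.5 and 3.5 cm from the ileocecum, and rectum within 7 mm of the anus. Every RNA was a pool of 5 mice on 1 array, so no group had a replicate, and whether both tissues of a group came from the same 5 animals is not recorded. Tests therefore rested on the spread of the rectum minus colon difference over 4 pairs that also differed in genotype and housing.

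The large intestine is patterned along its length by transcription factors of the Hox and Cdx families, and its segments differ in what they absorb and secrete. The proximal and middle colon take up much of the sodium, chloride, short-chain fatty acids and remaining bile acids, while the distal end reclaims the last sodium through the epithelial sodium channel. The rectum ends at the anal canal, where the columnar epithelium meets squamous epithelium and where striated sphincter muscle and anal glands lie close by. Genes of skeletal muscle and of glands are given below only as values beside other results.

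Expression was measured by 1-colour microarray, and the level of a gene is the log2 intensity of its probe relative to the 75th percentile of that array. Where 4 values are listed they follow the order WT control, WT stress, IL18ko control, IL18ko stress. Between 62.2% and 66.4% of spots lay well above the background of their array. The rectum WT stress array was the dimmest, with a median intensity of 40.9 units against 52.6 to 63.1 on the others. Il18 was at 2.77, 2.91, -8.01 and -7.78 in colon and at 4.37, 5.88, -7.85 and -7.48 in rectum, above background on the WT arrays alone, which fits the genotype labels. The 4 colon arrays shared 1 slide and the 4 rectum arrays another. A slide effect and a tissue effect cannot be told apart here, for any result below.

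The labelled tissue was checked against markers of the cells a sample could hold. Of 9 markers of colon epithelium 8 were on the array, without Muc2. All 8 were above background in both tissues, with a summed level of 9.93 to 10.3 in colon and 9.75 to 9.89 in rectum. The summed level of 6 skeletal muscle markers was 1.58 to 2.30 in colon and 2.49, 3.62, 6.78 and 4.55 in rectum. That of 7 squamous markers was 1.75 to 2.16 in colon and 2.53 to 3.11 in rectum, with Ivl above background on no array and Trp63 on 2 rectum arrays. Squamous and skin genes as a list of 45 on the array summed to 5.32 to 5.44 in colon and 5.92 to 6.17 in rectum, and gland genes as a list of 55 to 6.92 to 7.14 and 6.12 to 6.55. More gland genes were above background on a rectum array (27) than on a colon array (20). The median level of the tested gland genes was higher in rectum in every pair, from -3.74 to -3.39 in colon to -3.39 to -2.37 in rectum. The median of their rectum minus colon differences was negative in every pair, from -0.47 to -0.24. The summed level of that list and its median difference thus fell in rectum, while its median level rose. Muscle and squamous signal was higher in rectum in every pair. The part of these cells in the differences below was not tested, and in bulk RNA fewer cells of a type and less RNA per cell cannot be told apart.

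Large parts of the transcriptome differed between the segments. A probe was tested if it was well above background on at least 4 of the 8 arrays, and called if limma's adjusted p over all tested probes was under 0.05. Of 26265 probes 7110 were called (27.1%), 3437 higher and 3673 lower in rectum. With the probe of the highest mean level standing for each gene, 3808 of 12718 genes were called (29.9%), 1795 higher (14.1%) and 2013 lower (15.8%). The median difference was 0.79 among the genes called higher and -0.99 among those called lower, on the log2 scale, against 0.03 over all genes. These p-values measure the spread between pools and between mouse groups, and the number of arrays limits their precision.

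The direction of a called difference was nearly always shared by the 4 pairs, while its size was less stable. Of the 3808 called genes, 3788 had the same sign in 4 of 4 pairs, and 20 had 1 pair against the others, in 14 of them the WT stress pair. The 4 rectum and the 4 colon levels did not overlap in 3328 of the called genes, and in 4222 of all 12718 tested genes (33.2%). At least 1 log2 unit (2-fold) in each of the 4 pairs was reached by 401 genes called higher (3.15% of those tested) and 650 called lower (5.11%). A further 597 called genes had a mean difference of that size without reaching it in each pair. Among 3290 called genes above background on all 8 arrays and outside the muscle and gland lists, the range over the 4 pairs was under 0.5 in 1406 and above 2 in 43.

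The sizes of dim genes also rested on the background correction. With normexp, which adds an offset of 50 units, 1171 of 3807 called genes (30.8%) had a difference more than 1.5 times smaller, 0 had a difference as much larger and 0 turned sign. Among the 1447 of them with mean levels of at least 0 in both tissues this held for 1 gene.

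The WT stress pair stood apart. The SD of its deviations from the mean difference of the 4 pairs was 0.49 across genes, against 0.32, 0.34 and 0.38 in the WT control, IL18ko control and IL18ko stress pairs, and it was the pair farthest from the others in 1818 of the called genes. Without it 10574 probes were called, 5338 higher and 5236 lower. Without the WT control pair 3478 were called (1455 higher, 2023 lower), without the IL18ko control pair 3732 (1483 and 2249) and without the IL18ko stress pair 5473 (2538 and 2935). In all, 1838 genes were called with the 4 pairs and again without each pair in turn, 743 of them higher and 1095 lower. Across the 12718 genes, which are not independent replicates, the differences of 2 pairs correlated with r from 0.70 to 0.88.

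**Figure D1:**
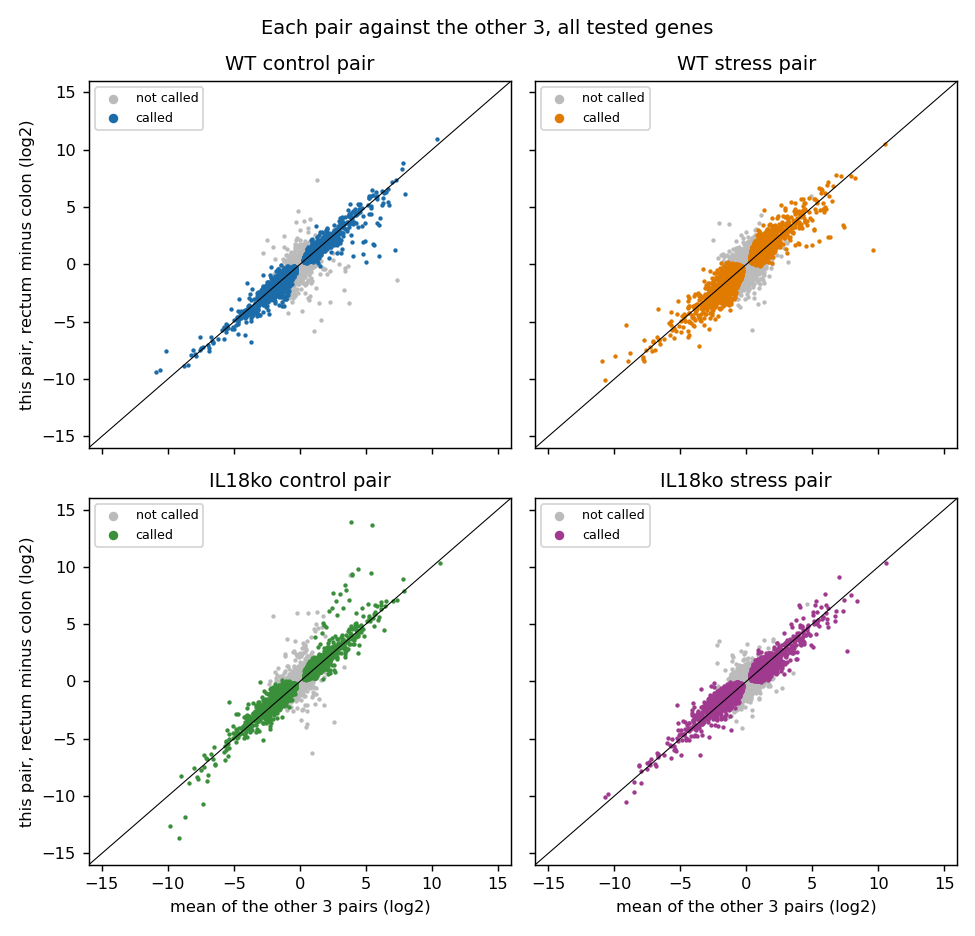
Rectum minus colon difference (log2) of each tested gene in 1 pair (y axis) against the mean of the other 3 pairs (x axis), 1 panel per mouse group, with called genes in colour, genes not called in grey and the line of equality in black. Called genes lie along the line in all 4 panels, with the widest scatter in the WT stress panel (SD of deviation 0.49). Probes below background on some arrays are plotted at their measured value. Some genes lie far above the line in the IL18ko control panel, whose rectum array had the highest summed level of skeletal muscle markers (6.78). The part of muscle cells in these genes was not tested.

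The largest rises that held in every pair were taken as the 15 called genes, above background on all 8 arrays, whose smallest pair difference was largest. The rule ranks by size, not by spread. All 15 were called again without each pair in turn, which the rule all but fixed and which adds no support. Among them were Fxyd4, Scnn1g, Atp12a and Trpv6, which act in ion transport. Fxyd4, a small regulator of the sodium pump, was at -4.13, -3.23, -3.50 and -3.62 in colon and at 6.80, 7.29, 6.82 and 6.74 in rectum. It lay below the 75th percentile of the array on every colon array and far above it on every rectum array, a difference of 10.53 ± 0.13 (SE over 4 pairs; limma's adjusted p = 8.33e-07), with pairs from 10.31 to 10.93. Scnn1g, the gamma subunit of the epithelial sodium channel, was at -4.65, -6.09, -5.86 and -5.13 in colon and at 0.73, 0.15, 0.73 and 0.84 in rectum. Atp12a, the non-gastric proton-potassium pump, went from -2.34, -1.96, -1.97 and -1.50 to 3.68, 3.42, 3.89 and 3.98, and its pairs spanned 5.37 to 6.02. With normexp the difference of Scnn1g was 3.89. Trpv6, an epithelial calcium channel, went from -4.43, -3.94, -4.49 and -5.21 to 1.54, 0.66, 1.06 and 0.89. For these transport genes the groups of arrays lay more than 4 log2 units apart in each pair.

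The glucose-6-phosphate exchanger family member Slc37a2 was higher by 6.27 ± 0.19 and the sialyltransferase St8sia5, which extends chains of sialic acid on gangliosides, by 6.18 ± 0.16. The sterol exporter subunit Abcg5 rose by 4.63 ± 0.27, with the IL18ko pairs at 3.96 and 4.01 and the WT pairs at 5.21 and 5.35. Lifr, the receptor of leukemia inhibitory factor, rose by 4.55 ± 0.15 with the probe that stood for it, and its other probes gave 0.45 to 2.20. The matrix protease Adamts15 (4.38), the homeobox gene Cphx1 (4.22), Ms4a10 (4.34) and the cardiac-type troponin Tnnt2 (5.38) rose as well. The cystatin family members Csta1 (5.29) and Cstdc6 (4.66) and the neutrophil protein S100a9 (5.01) had their largest pair in the WT stress group. Tnnt2 is a muscle gene outside the skeletal muscle list, with pairs from 4.73 to 5.75, and the part of muscle cells in its rise was not tested.

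The 15 largest falls that held in every pair were chosen in the same way. All were called again without each pair in turn, which the rule all but fixed here too. Ang4, an antimicrobial ribonuclease, was at 6.95, 6.82, 6.38 and 6.40 in colon and at -0.55, -0.61, -1.36 and -1.23 in rectum, a difference of -7.58 ± 0.10 with pairs from -7.75 to -7.43. Its family member Ang2 lay at -6.64 ± 0.10, and the 2 probes may read each other's transcript. Plet1, a surface protein of colon epithelium, went from 5.50, 5.55, 5.01 and 4.82 to -2.10, -1.96, -1.45 and -1.95. Tmigd1, an adhesion protein of the brush border, went from 3.8, 3.30, 3.57 and 3.23 to -3.50, -3.45, -3.12 and -3.96. In each of these genes the lowest colon array stood over 4 log2 units above the highest rectum array.

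Fabp2, the intestinal fatty acid binding protein, was at 7.63, 7.64, 7.53 and 7.71 in colon and still at 2.45, 2.66, 1.73 and 1.64 in rectum, a difference of -5.51 ± 0.19. Slc3a1, the heavy subunit of a cystine and dibasic amino acid transporter, went from 1.47, 1.74, 2.16 and 1.68 to -4.86, -4.85, -5.09 and -4.65. The remaining falls were those of the apolipoprotein L gene Apol10a (-7.94), Tmem252 (-6.64), the gut hormone neurotensin Nts (-6.65), the matricellular protein Ccn3 (-6.30), the glucuronosyltransferase Ugt2b38 (-5.86), the ganglioside enzyme B4galnt1 (-5.63), Prap1 (-5.70), the lectin Itln1 (-5.46) and Retnlb (-9.47). Retnlb, a goblet cell defence protein, had the least stable size of them, with pairs at -7.54, -7.97, -11.87 and -10.52, since its rectum level was -1.0 and -1.50 in WT and -5.85 and -4.54 in IL18ko mice.

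**Figure D2:**
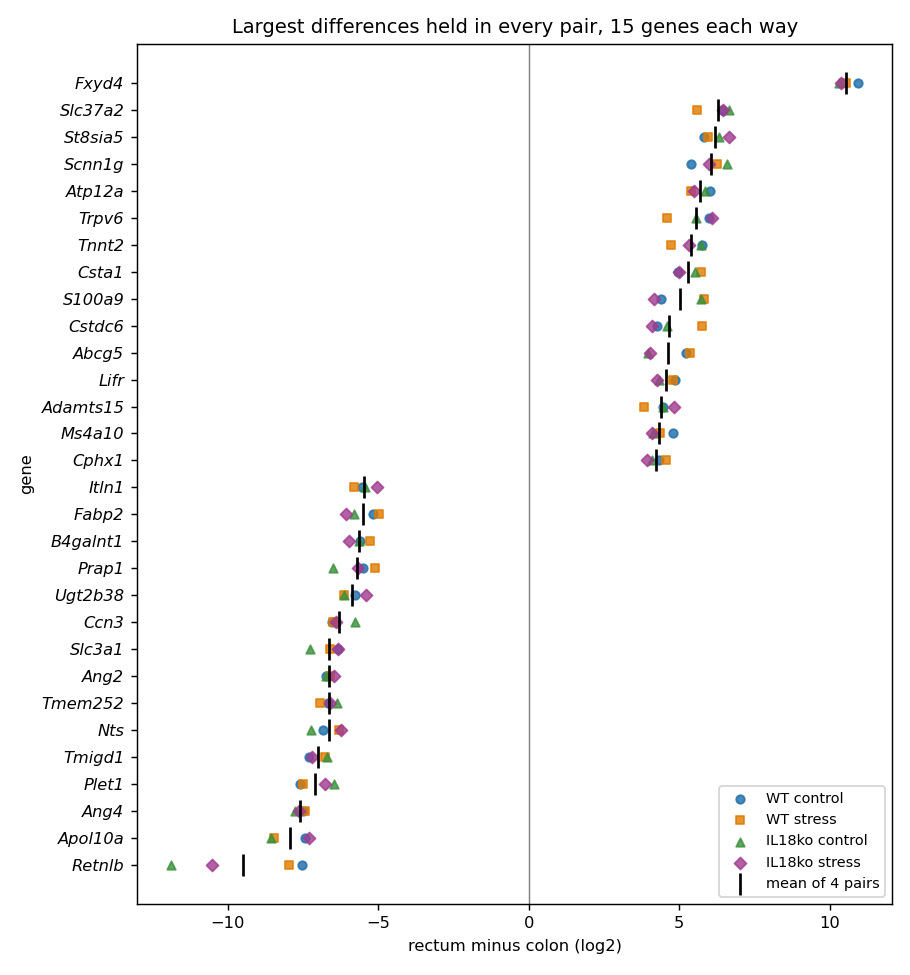
Rectum minus colon difference (log2) in each of the 4 pairs (coloured symbols) and their mean (black bar) for the 15 rises and the 15 falls with the largest smallest pair. Fxyd4 stands alone at 10.53, the other rises lie between 4.22 and 6.27, and the 4 pairs of Retnlb lie farthest apart, from -11.87 to -7.54.

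Promoter sequence was examined for these genes, whose shared direction over the 4 pairs follows from the rule that chose them. RefSeq (GRCm38.p6) held a promoter for 11 of these 15 rises and 11 of these 15 falls. The 250 bases before the gene start are shown, on the gene's own strand, for genes whose levels are given above. Capitals mark every match, on either strand, to TATAAA (the TATA box), CAATAAA (a HOX13-type motif), CCATAAA (a CDX-type motif), CAAAGTCCA (an HNF4-type motif) or a steroid receptor-type motif (an inverted repeat, with some bases free). Fxyd4 lies on the minus strand at chr6:117937336-117937585, Trpv6 on the minus strand at chr6:41636406-41636655, Plet1 on the plus strand at chr9:50494275-50494524, Slc3a1 on the plus strand at chr17:85028097-85028346 and Fabp2 on the plus strand at chr3:122894822-122895071.
Fxyd4: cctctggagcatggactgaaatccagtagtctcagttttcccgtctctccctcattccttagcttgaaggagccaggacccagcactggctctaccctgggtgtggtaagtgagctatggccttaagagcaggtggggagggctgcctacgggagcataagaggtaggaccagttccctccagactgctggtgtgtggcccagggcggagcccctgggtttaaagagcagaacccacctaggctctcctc
Trpv6: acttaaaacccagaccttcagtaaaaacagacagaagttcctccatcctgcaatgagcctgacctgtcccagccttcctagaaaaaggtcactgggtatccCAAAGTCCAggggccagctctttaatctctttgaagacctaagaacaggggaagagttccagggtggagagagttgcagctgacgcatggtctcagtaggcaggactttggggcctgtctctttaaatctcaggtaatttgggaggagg
Plet1: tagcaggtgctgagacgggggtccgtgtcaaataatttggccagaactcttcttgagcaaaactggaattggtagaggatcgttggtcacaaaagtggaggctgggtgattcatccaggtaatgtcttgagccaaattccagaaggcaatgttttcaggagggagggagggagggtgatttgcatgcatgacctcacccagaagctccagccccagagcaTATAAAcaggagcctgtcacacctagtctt
Slc3a1: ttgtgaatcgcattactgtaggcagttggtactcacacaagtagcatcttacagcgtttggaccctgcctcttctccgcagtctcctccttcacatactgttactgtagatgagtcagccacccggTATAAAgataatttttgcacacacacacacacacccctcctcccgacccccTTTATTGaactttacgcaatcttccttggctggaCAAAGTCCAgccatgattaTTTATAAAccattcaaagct
Fabp2: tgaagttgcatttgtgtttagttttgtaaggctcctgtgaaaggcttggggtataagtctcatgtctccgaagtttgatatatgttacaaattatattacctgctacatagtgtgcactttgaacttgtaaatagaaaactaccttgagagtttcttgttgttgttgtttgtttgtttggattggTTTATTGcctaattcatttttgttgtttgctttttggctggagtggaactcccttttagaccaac

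Fxyd4, the gene with the largest rise, held none of the 5 motifs in these 250 bases. Trpv6 held the HNF4-type motif, with its first base 149 bases before the start. Plet1 held a TATA box 30 bases before the start, and Fabp2 a HOX13-type motif on the opposite strand 65 bases before it. Slc3a1 held 5 matches, of which a TATA box at 18 bases and its reverse at 20 bases overlap, and the others were a TATA box at 124, a HOX13-type motif at 73 and an HNF4-type motif at 39 bases.

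These matches are letters only and no evidence of binding. Over all 32851 promoters of the table, 12.4% held the TATA box, 4.20% the HOX13-type, 2.43% the CDX-type, 0.38% the HNF4-type and 0.39% the steroid receptor-type motif. Among 378 promoters of genes higher by at least 1 log2 unit in each pair these shares were 12.4%, 4.23%, 1.59%, 1.85% and 0%. Among 659 promoters of genes lower in the same way they were 12.6%, 3.34%, 2.58%, 0.61% and 0.15%. The promoters of the table are not limited to the genes tested here, and the shares are given as a description, with no test.

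Some genes were detected in 1 segment only, and for these the size is a lower bound. The bound sets the mean level of the bright tissue against the mean, over the dim tissue's arrays, of the lowest signal among probes well above background or the probe's own signal where that is higher. In all, 82 called genes were above background on 4 of 4 rectum and 0 of 4 colon arrays, and 102 the other way round. In rectum only, the largest bounds were those of the positional gene Hoxd13 (at least 124-fold higher), the receptor Gpr83 (at least 80.8-fold), the cornification protease Casp14 (at least 59.4-fold) and the membrane serine protease Tmprss13 (at least 47.2-fold). Stfa3, a cystatin relative of Csta1, was at least 37.3-fold higher, 2010106E10Rik at least 30.3-fold, the neutrophil attractant Cxcl5 at least 28.3-fold and Higd1c at least 22-fold. Hoxd13 was at -8.08, -7.04, -8.15 and -6.15 in colon and at 0.75, 0.47, 0.77 and 0.86 in rectum, and Gpr83 at -6.61, -6.30, -6.97 and -6.22 and at -0.01, 0.55, 0.02 and -0.07. Both were at close to the same rectum level in all groups.

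In 1 gene of this kind the rectum arrays themselves were far apart. 2310057J18Rik was at -2.83, -5.02, 6.80 and -5.57 in rectum, above background on all 4 of these arrays and on no colon array. Its bound of at least 24.0-fold rests on the IL18ko control array.

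In colon only, the largest bounds were those of ccdc198 (at least 193-fold lower in rectum), the glucuronosyltransferases Ugt2b5 (at least 94.8-fold) and Ugt2b37 (at least 78.1-fold), the sulfate transporter Slc13a1 (at least 60.3-fold) and the class I-like antigen H2-T3 (at least 57.2-fold). The potassium channel subunit Kcne2 (at least 54.3-fold), the bile acid exporter subunit Slc51a (at least 48.9-fold), Adam18 (at least 45.2-fold), the retinol esterifying enzyme Lrat (at least 28.5-fold) and the prothrombin gene F2 (at least 20.7-fold) followed. A higher floor, the 10th percentile of the probes above background on each array, lowers these bounds, to 51.2-fold for Hoxd13, 34.0-fold for Gpr83, 82.7-fold for ccdc198 and 40.5-fold for Ugt2b5, and to 1.02-fold for Il25 and 1.22-fold for Hoxb8, the smallest bounds given below. H2-T3 was at -0.24, -0.04, -0.02 and -0.89 in colon and between -8.34 and -8.10 in rectum. Slc13a1 was at -0.49, -0.33, 0.09 and -0.16 in colon, and Lrat at -1.20, -1.28, -1.34 and -1.38. Ugt2b5, Ugt2b37 and Ugt2b38 are close relatives, and how far their probes read each other's transcripts is not known.

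The sizes of a few called differences varied widely between pairs although the gene was above background on all 8 arrays. Beside Retnlb these were Adssl1, Abcg4, S100g, Ms4a1, Sh2d7, Prph, Pnliprp2, Apol10b and Adipoq, with ranges over the 4 pairs from 2.54 to 3.25. S100g, the vitamin D-dependent calcium binding protein, was at -0.51, -3.03, -0.40 and -2.59 in colon and at 3.05, 2.39, 2.05 and 1.62 in rectum, so its colon level was lower on both stress arrays and its difference ran from 2.44 to 5.42. Adssl1, the adenylosuccinate synthase of muscle, had pairs of 0.97, 2.45, 4.22 and 1.70, the largest in the pair with the highest summed muscle markers. The part of muscle cells in this difference was not tested. Adipoq, the fat cell hormone, was at 1.82, 0.44, 1.79 and 1.24 in colon and at -1.76, -2.24, 0.65 and 0.20 in rectum, so its WT pairs (-3.58 and -2.68) were larger in size than its IL18ko pairs (-1.14 and -1.04). Ms4a1, the B cell antigen CD20, was higher in rectum by 2.18, 3.46, 1.03 and 0.65, and the intermediate filament Prph of neurons was lower with pairs at -1.60, -3.52, -1.53 and -0.84. The calls of Ms4a1, Prph and the transporter Abcg4 (-1.69 ± 0.44, pairs from -3.27 to -0.24) were lost when a pair was left out. Whether genotype or housing changes these differences was not tested, as each combination is 1 pair.

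Hox genes, which mark position along the body axis, changed in both directions, in part by their number in the cluster. Of 28 Hox genes tested, 6 were called higher and 15 lower, with a median difference of -0.62 (-0.27 with normexp) against 0.03 over all genes. Counts in this and the following lists are to be read beside 14.1% higher and 15.8% lower over all genes. They include genes detected in 1 tissue alone, which passed the background filter through that tissue. The filter all but fixed the direction of such genes, and they add no support to a list's direction. None of the 20 tested Hox genes with numbers 1 to 9 was higher and 13 were lower, while 6 of the 8 with numbers 10 to 13 were higher and 2 lower. Hoxd11, Hoxd12 and Hoxd13 passed the background filter through the rectum arrays alone, and Hoxb8 through the colon arrays alone. For these the filter all but fixed the direction, and they add no support to that split. Of the rest with numbers 10 to 13, Hoxd10, Hoxb13 and Hoxa13 were higher, and Hoxa10 and Hoxa11 lower. In the Hoxd cluster Hoxd13, Hoxd12 (at least 4.57-fold) and Hoxd11 (at least 17.7-fold) were detected in rectum alone, and Hoxd10 was at -5.92, -6.17, -5.18 and -5.35 in colon, above background on 2 of these arrays, and at -0.02, 0.03, 0.20 and 0.30 in rectum. The last gene of the Hoxb cluster, Hoxb13, was at 2.15, 2.40, 2.09 and 2.55 in colon and at 5.68, 5.55, 5.72 and 5.71 in rectum, higher by 3.37 ± 0.12. Its neighbours in the cluster went the other way, with Hoxb7 at -2.83 ± 0.13, Hoxb6 at -2.30, Hoxb5 at -2.31 and Hoxb9 at -0.85, and Hoxb8 at least 2.84-fold lower and detected in colon alone.

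The Hoxa cluster showed smaller differences at its end. Hoxa13 was higher by 0.43 ± 0.11, and Hoxa11 (-1.99 ± 0.24) and Hoxa10 (-0.54 ± 0.10) were lower, while Hoxa9 was at -0.24 and was not called. The calls of Hoxa13 and Hoxa10 did not hold without each pair. Of the Hoxc cluster only Hoxc4 (0.12) and Hoxc9 (0.21) were tested, and neither was called. Without the WT control pair 9 Hox genes were called lower and without the IL18ko control pair 7. Hoxd10, Hoxb13, Hoxb5 to Hoxb7 and Hoxb9 kept their calls without each pair in turn. So did Hoxd11 to Hoxd13 and Hoxb8, whose direction the filter all but fixed.

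**Figure D3:**
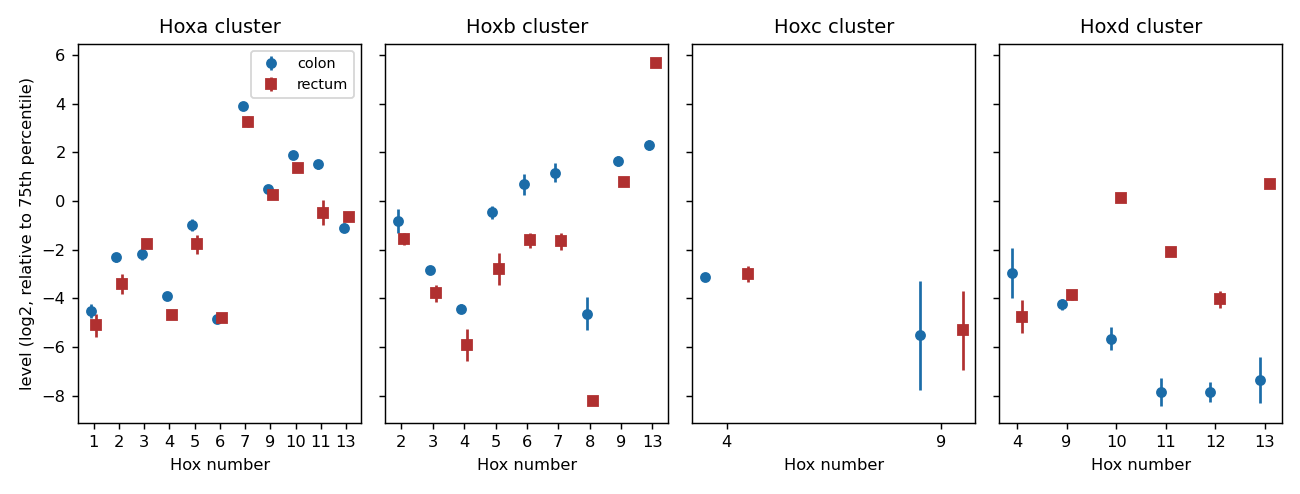
Level (log2 relative to the 75th percentile of the array) of the tested Hox genes by cluster and number, as the mean of 4 colon (blue circles) and 4 rectum arrays (red squares), with bars for the SD. Levels are to be compared between tissues within a gene, as each probe has its own brightness. Hoxd10 to Hoxd13 and Hoxb13 stand higher in rectum, and the Hoxb genes up to number 9 lower.

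Among 35 tested transcription factors of gut epithelium and mesenchyme, 8 were called higher and 11 lower (median 0.05). Cdx2, a master regulator of intestinal identity, was at 5.88, 5.62, 7.10 and 6.93 in colon and at 1.89, 2.11, 3.31 and 3.66 in rectum, a difference of -3.64 ± 0.14, although its level was higher in IL18ko mice in both tissues. Cdx1 (0.24), Hnf4a (0.21), Hnf4g (0.10) and Gata6 (0.28) were not called. The goblet and secretory factors Spdef (-2.58), Gfi1 (-2.0) and Atoh1 (-1.03) were lower, as were the lipid-sensing receptors Ppara (-1.40) and Pparg (-1.28). Tbx5 was at least 5.62-fold higher and detected in rectum alone, and Isl1 (2.40 ± 0.20) and Klf5 (0.82 ± 0.09) were higher. Only 4 genes of the list were called higher without the WT control pair, and 3 without the IL18ko control pair.

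Sodium reclaiming genes differed by subunit. Of 35 tested genes of sodium, potassium and chloride transport 10 were higher (28.6%) and 7 lower (20%), against 14.1% and 15.8% over all genes. The list median of -0.06 turned positive without the WT stress pair. The 3 subunits of the epithelial sodium channel rose by different amounts. Scnn1a was at 3.19, 3.49, 3.60 and 3.97 in colon and at 3.79, 4.38, 4.22 and 4.30 in rectum (0.61 ± 0.11), and Scnn1b at -2.43, -2.15, -2.42 and -2.57 and at -0.40, -0.56, -0.38 and -0.05 (2.04 ± 0.16), against 6.05 ± 0.21 for Scnn1g. The difference of Scnn1a was smaller than those of Scnn1b and Scnn1g in each pair. The sodium pump subunit Atp1b1 (0.40) was not called, and the Fxyd family members Fxyd3 (-1.10) and Fxyd6 (-1.04) were lower. The potassium channel Kcnma1 was lower at -1.07 ± 0.17, and Kcnmb2 was higher at 1.20 ± 0.24, above background on 2 of 4 colon arrays. The calls of Scnn1a and Kcnmb2 did not hold without each pair. The list had 4 genes called higher and 4 lower without the WT control pair, and 6 and 4 without the IL18ko control pair.

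Carbonic anhydrases and anion exchangers split in the same family. Car12, a membrane-bound carbonic anhydrase, was at 1.58, 1.74, 1.82 and 1.34 in colon and at -2.83, -3.22, -2.67 and -2.78 in rectum (-4.49 ± 0.15), and the catalytically inactive Car8 was lower (-3.95 ± 0.26), with the smallest pair, -2.90, in the WT stress group. Car4 (0.94 ± 0.13) and Car14 (1.18 ± 0.16) were higher, as were the sodium bicarbonate cotransporter Slc4a4 (2.28 ± 0.22) and the sulfate transporter Slc26a2 (0.78). The chloride bicarbonate exchanger Slc26a3 was higher by 0.42 and Car2 by 0.33, and Car1 lay at -0.54, calls that did not hold without each pair. In all, 7 of 18 were higher and 5 lower (median 0.22), and without the IL18ko control pair 4 and 2 were.

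Of 35 tested nutrient and metabolite transporters 15 were higher and 8 lower. Slc15a1, the peptide transporter PEPT1, was at -2.59, -2.53, -2.42 and -1.97 in colon and at 0.60, 1.16, 0.91 and 0.93 in rectum (3.27 ± 0.15). Slc6a20a, a proline transporter, was higher by 4.0 ± 0.20, the amino acid transporter light chain Slc7a9 by 1.55, the creatine transporter Slc6a8 by 1.61 ± 0.09, the iron exporter Slc40a1 by 1.47 and the vitamin transporter Slc5a6 by 1.43 ± 0.11. Slc7a9 and Slc3a1, known as partners in cystine uptake, therefore lay on opposite sides, at 1.55 and -6.63. Both subunits of the bile acid exporter were lower, Slc51b at -2.24 ± 0.10 beside the colon-only Slc51a. Fabp1, the liver-type fatty acid binding protein, was at least 19.3-fold lower and detected in colon alone, and the citrate transporter Slc13a2 was at -2.36. The median of the list was 0.15, and 8 were called higher without the WT control pair, as without the IL18ko control pair.

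Water channels and junctions changed in a few members. Aqp4 was at 3.81, 3.73, 3.93 and 3.68 in colon and at -0.84, -1.32, -0.12 and -0.57 in rectum (-4.50 ± 0.18), while the abundant colon aquaporin Aqp8 lay at -0.04 ± 0.10 and was not called. In all 3 of 7 tested aquaporins were lower and 0 higher. Of 28 tested junction and adhesion genes 9 were higher and 6 lower (median 0.23). The pore-forming claudin Cldn15 was at 4.53, 4.58, 4.62 and 4.23 in colon and at 1.74, 1.67, 1.75 and 1.59 in rectum, and Cldn4 (-1.17) and Cldn23 (-0.82) were lower. The barrier claudin Cldn8 was higher by 1.67 ± 0.27 with its largest pair, 2.76, in the WT stress group, and Cldn14 (0.84) and the desmosome protein Pkp1 (1.28) were higher. Cldn2, Cldn3, Cldn7, Cldn12 and Tjp1 lay between 0.07 and 0.33 and were not called. Genes called higher numbered 5, 3 and 5 without the WT control, IL18ko control and IL18ko stress pairs.

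Most tested goblet cell and mucus genes were lower, 12 of 18 against 2 higher. The median difference of -1.23 ran from -1.37 to -0.88 between pairs. Only 19 of the 24 list genes were on the array, and the mucin Muc2 had no named probe. Beside Retnlb, the trefoil peptide Tff2 was at least 10.6-fold lower and detected in colon alone. The membrane mucin Muc4 was at 2.11, 2.37, 1.43 and 1.20 in colon and at -0.85, -1.27, -1.13 and -1.11 in rectum, Spink4 was at -1.61 ± 0.09, and the mucin folding protein Agr2 at -1.22. Tff3 (-0.03) and Clca1 (-0.14), both abundant goblet cell products, were not called, so the fall was uneven within the list. Muc13 (0.85 ± 0.10) was higher, and so was Muc1 (1.29 ± 0.34), whose call did not hold without each pair. The secretory factor Spdef is counted in this list as well as among the transcription factors.

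Enzymes that build glycan chains were called in 23 of 34 cases, 8 higher and 15 lower (median -0.37, and -0.20 with normexp). St3gal1, which caps O-glycans with sialic acid, was at 2.74, 2.91, 2.80 and 3.08 in colon and at -2.04, -1.44, -1.53 and -1.98 in rectum (-4.63 ± 0.15). B4galnt1 and B4galnt2 (-2.57) and the mucin core enzyme Gcnt3 (-2.36) were lower. B4galnt3 (2.80 ± 0.15), B3gnt7 (2.71 ± 0.14), Gcnt1 (1.79 ± 0.15), B3gnt5 (1.77 ± 0.15) and the sulfotransferase Gal3st2 (1.75 ± 0.24) were higher, beside St8sia5. Members of the same enzyme family thus moved in opposite directions: B4galnt1 at -5.63 against B4galnt3 at 2.80, and Gcnt3 at -2.36 against Gcnt1 at 1.79.

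Antimicrobial and defence proteins were divided too, 9 of 23 higher and 8 lower. This balance did not change by more than 1 gene in either direction with any pair left out. Among the counted genes, Ltf and S100a8 passed the background filter through the rectum arrays alone, and Reg1 through the colon arrays alone. For these the filter all but fixed the direction, and they add no support to the balance. The lectins Reg3b and Reg3g and Retnlb, Ang4, Itln1 and Reg1 (at least 3.82-fold) were lower. Reg3b was at 5.27, 1.71, 6.51 and 5.27 in colon and above background on 2 of the 4 rectum arrays, and Reg3g was at 1.95, 0.13, 3.53 and 2.34 in colon and above background on 1, so that the other pairs give no measured size. Reg4, another lectin of the Reg family, went the other way, from 0.61, 0.99, 0.88 and 0.47 in colon to 4.23, 4.02, 3.78 and 3.70 in rectum. Lactoferrin, Ltf (at least 18.3-fold), and S100a8 (at least 6.9-fold) were detected in rectum alone, the resistin-like Retnla was higher by 2.34 ± 0.24, and the protease inhibitors Slpi (1.20) and Wfdc2 (1.27) were higher.

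Tuft cells are rare chemosensory epithelial cells that detect luminal metabolites and parasites and release interleukin 25. Of 20 tested genes of a tuft cell list 16 were lower in rectum, 2 were higher and 2 were not called (median difference -2.39). Il25, counted among the 16, passed the background filter through the colon arrays alone, which all but fixed its direction. The 4 rectum and 4 colon levels did not overlap in 19 of them, and in 33.2% of all tested genes. Trpm5, the cation channel of taste signalling, was at -1.11, -0.98, -1.19 and -1.29 in colon and at -5.53, -5.95, -4.22 and -4.07 in rectum. Dclk1, the kinase most used as a tuft cell marker, was at -0.44, -0.44, -0.30 and -0.24 and at -3.96, -4.43, -2.92 and -3.0. Rgs13 (-3.89 ± 0.26), Sh2d7 (-3.72 ± 0.44), Siglecf (-3.13 ± 0.16), Matk (-2.85 ± 0.25) and Avil (-2.48 ± 0.39) were lower as well, and Il25 was at least 2.39-fold lower and detected in colon alone. In Trpm5, Dclk1, Rgs13 and Sh2d7 the WT pairs were larger in size than the IL18ko pairs, with Rgs13 at -4.24 and -4.70 in WT and -3.21 and -3.40 in IL18ko mice. This pattern was seen after the values were known, and with 1 pair per genotype and housing it was not tested. The WT rectum levels of Trpm5 and of Sh2d7 (-4.98 and -5.57) were dim. They lay below the 10th percentile of the probes above background on those arrays (-4.73 and -4.78), and those of Dclk1 did not. The sizes of the WT pairs of Trpm5 and Sh2d7 are therefore uncertain.

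The tuft cell falls did not hang on a single pair. Of the 18 called members 15 kept their calls without each pair in turn, and the number lower lay between 15 and 17. Hpgds (1.69 ± 0.14) and Vav1 (0.79 ± 0.19, a call that did not hold without each pair), which are also expressed by blood cells, were higher, and Ptgs1 (-0.49) and Gng13 (-0.45) were not called. Siglecf is also a gene of eosinophils, and Alox5ap and Ltc4s of leukotriene-making cells. The list median was -0.91 with normexp and lay between -2.56 and -1.77 under the other alternatives, and with normexp the difference was -2.27 for Trpm5, -2.22 for Sh2d7, -1.79 for Matk, -1.55 for Siglecf and -1.32 for Avil.

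**Figure D4:**
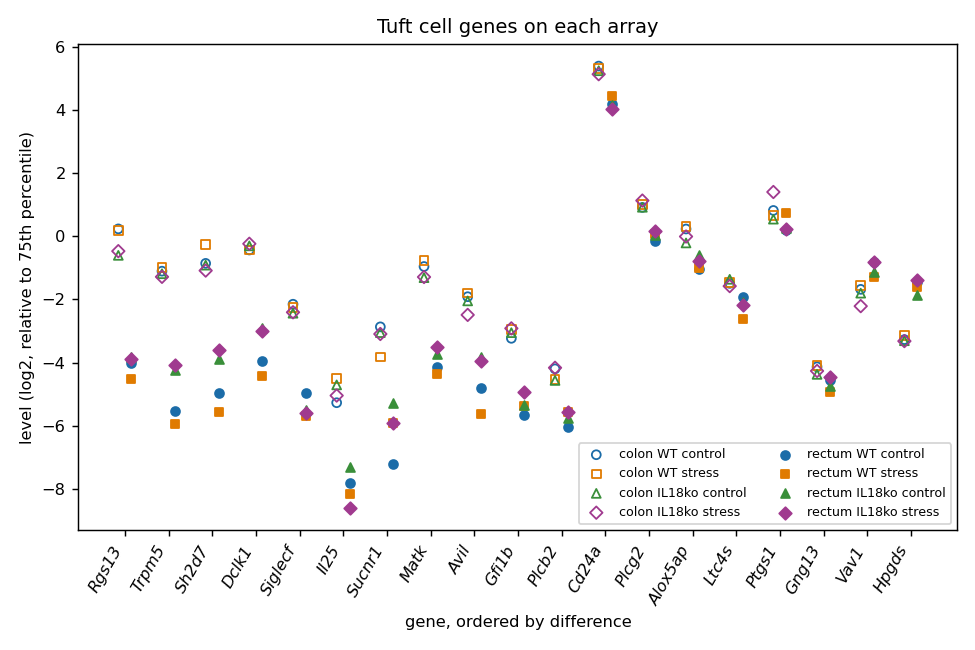
Level (log2 relative to the 75th percentile) of 19 of the 20 tested tuft cell genes on each of the 8 arrays, ordered by their difference, with open symbols for colon and filled symbols for rectum. The rectum arrays lie below the colon arrays in the genes from Rgs13 to Ltc4s, and above them in Vav1 and Hpgds at the right.

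Hormone-producing enteroendocrine cells gave a similar direction, with 16 of 29 genes lower and 2 higher (median -0.63, and -0.34 with normexp). Beside Nts, Cck was at 0.14, 0.15, 0.07 and 0.11 in colon and at -4.00, -3.77, -3.49 and -3.90 in rectum. Glucagon, Gcg, was lower (-1.87 ± 0.11), Sct was at -2.73 ± 0.15, Sst at -2.35 ± 0.14 and the serotonin enzyme Tph1 at -1.83 ± 0.18. Peptide YY did not follow: Pyy was at 5.36, 5.39, 5.27 and 5.40 in colon and at 5.87, 6.43, 5.92 and 5.76 in rectum, higher by 0.64 ± 0.13, and Insl5, another distal gut hormone, lay at -0.22 and was not called. The call of Pyy did not hold without each pair. The general secretory genes Chga (-1.05 ± 0.11) and Chgb (-1.09 ± 0.17) were lower, and the islet and endocrine factors Neurog3 (0.14) and Pax4 (0.54) were not called.

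Receptors for metabolites and transmitters changed in both directions. The short-chain fatty acid receptor Ffar2 was at 2.80, 2.92, 2.66 and 2.55 in colon and at -1.31, -1.53, -1.47 and -1.53 in rectum. The alpha-adrenergic receptor Adra2a was at 3.06, 3.28, 3.67 and 3.40 and at -1.61, -1.48, -1.17 and -1.21, with pairs from -4.84 to -4.61. The neuropeptide Y receptor Npy1r was higher by 2.75 ± 0.18, from -4.34, -4.72, -5.11 and -4.82 to -2.10, -1.77, -2.01 and -2.11. Sstr2 (-1.51), Trpa1 (-1.42, above background on 2 of 4 rectum arrays) and P2ry1 (-1.11) were lower, and the magnesium channel Trpm6 (1.53) was higher. Of 38 receptors tested (median -0.13) 8 were higher (21.1%) and 13 lower (34.2%), against 14.1% and 15.8% over all genes. In this list 5 were higher without the WT control pair and 5 without the IL18ko control pair, and 7 were lower without the WT control pair.

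Drug and toxin metabolism genes were called in 36 of 60 cases, 12 higher and 24 lower, around a median of -0.02 that turned positive with median centring. The cytochrome Cyp2c66 was at 4.29, 4.15, 4.47 and 4.21 in colon and at 0.57, 0.56, 0.25 and 0.40 in rectum, and Cyp4b1 (-3.06 ± 0.12), the carboxylesterase Ces1f (-3.19 ± 0.13), the bilirubin-conjugating Ugt1a1 (-2.50 ± 0.28) and Aldh1a1 (-2.15 ± 0.10) were lower. Cyp2f2 was at -2.26, -1.70, -0.87 and -0.56 in colon and at 2.37, 2.99, 3.00 and 2.87 in rectum, and Cyp2b10 was at least 3.88-fold higher and detected in rectum alone. The estrogen sulfotransferase Sult1e1 was called higher, above background on 1 of 4 colon arrays and at 0.02, 0.42, 0.94 and 0.73 in rectum. The flavin monooxygenases Fmo1 (2.45 ± 0.16) and Fmo2 (1.5 ± 0.17) and the xenobiotic receptor Nr1i3 (1.33 ± 0.15) were higher as well.

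Retinoid genes pointed to both tissues, 9 of 34 retinoid and steroid genes being higher and 10 lower. Lrat, Aldh1a2 (-3.95 ± 0.25), Aldh1a1, Rbp4 (-2.73 ± 0.14) and Hsd17b13 (-4.12 ± 0.19) were lower. Rdh16 was at -1.06, -0.95, -1.09 and -1.39 in colon and at 1.84, 1.65, 1.96 and 1.86 in rectum, and Aldh1a3 (2.77 ± 0.34), Rbp2 (1.47 ± 0.19) and the carotenoid-cleaving Bco1 (1.39 ± 0.24) were higher. All 3 retinaldehyde dehydrogenases, which make retinoic acid, were therefore called, 2 lower and 1 higher. The steroid-making enzymes Hsd3b2 (-2.63) and Hsd3b3 (-2.84) were lower, and Hsd11b2, which shields the mineralocorticoid receptor from glucocorticoid, was at 0.51 ± 0.14 with a call that did not hold without each pair.

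Lipid mediator genes were split 7 higher (26.9%) and 6 lower (23.1%) of 26 tested, against 14.1% and 15.8% over all genes. The leukotriene enzyme Alox5 was at -1.95 ± 0.18, the endocannabinoid hydrolase Mgll at -1.77 ± 0.11 and the prostaglandin E receptors Ptger4 and Ptger2 at -1.36 and -1.33. The receptor Ptger3 was higher by 2.18 ± 0.19, and Alox15 was at least 11-fold higher and detected in rectum alone. The number called higher was 3 without the WT control pair and 3 without the IL18ko control pair, and 11 genes were lower without the WT stress pair.

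Energy and lipid metabolism genes were lower in part. Of 30 genes of fatty acid oxidation and ketone synthesis 9 were lower and 2 higher (median -0.25). Pdk4, a kinase that restrains glucose oxidation, was at -0.22, -0.02, 0.79 and 1.75 in colon and at -2.42, -2.15, -1.54 and -1.64 in rectum, and Vnn1 was lower (-2.24 ± 0.29), while Cpt1a (0.09), Acadm (0.00) and Hadh (0.00) were not called. Without the WT stress pair 16 were called lower, and without the WT control or the IL18ko control pair 0 were called higher. Of 35 genes of sterol and fatty acid synthesis (median -0.20) 11 were lower and 4 higher. These were 31.4% and 11.4%, against 15.8% and 14.1% over all genes. The elongase Elovl6 was at -1.89 ± 0.10 and the citrate lyase Acly at 1.25 ± 0.09. Fewer were called lower without the WT control (5), IL18ko control (4) and IL18ko stress (7) pairs. Of 29 genes of amino acid, urea and polyamine metabolism 9 were higher and 10 lower, with Arg2 (-2.79 ± 0.20), the urea cycle enzyme Otc (-2.08 ± 0.23) and Mthfd2 (-1.65 ± 0.18) lower and the creatine-making enzyme Gatm (1.30 ± 0.19) higher. Without the WT control, IL18ko control and IL18ko stress pairs 2, 3 and 4 of that list were called higher, and without either control pair 6 were called lower.

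Crypt genes (median 0.12) were called in 18 of 43 cases, 10 higher (23.3%) and 8 lower (18.6%), against 14.1% and 15.8% over all genes. The stem cell marker Lgr5 was at -1.36, -1.02, -1.67 and -1.58 in colon and at -1.26, -0.52, -1.55 and -1.50 in rectum and was not called (0.20 ± 0.12), while the stem cell factor Ascl2 was higher by 1.40 ± 0.15. Bmp2 was higher by 2.24 ± 0.16 and the secreted Wnt binder Sfrp2 by 2.41 ± 0.27. Dkk2 (-1.98 ± 0.17), Prom1 (-1.69 ± 0.18), Cd44 (-1.74 ± 0.23) and Wif1 (-1.39 ± 0.15) were lower. Secreted Wnt inhibitors therefore lay on both sides.

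Proliferation genes were lower by small amounts, 16 of 33 against 0 higher (median -0.39), with Ccnb1 at -1.05 ± 0.13, Plk1 at -0.70 ± 0.09 and Ccna2 at -0.62 ± 0.09. The replication genes Mcm2, Mcm4, Mcm6 and Mcm7 lay between 0.04 and 0.22 and were not called. The count of the list rested on the pairs: 4 were called lower without the WT control pair, 5 without the IL18ko control pair, 10 without the IL18ko stress pair and 20 without the WT stress pair.

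Structural genes of the columnar epithelium were partly called. Vil1 (-0.07 ± 0.08), Krt8 (0.10 ± 0.08), Epcam (0.15 ± 0.08), Krt19 (0.22 ± 0.08) and Cdh1 (0.41 ± 0.08) differed by less than 0.5, with only Cdh1 called, and its call did not hold without each pair. Krt20, a keratin of mature surface cells, was at 7.51, 7.57, 7.73 and 7.87 in colon and at 6.85, 7.21, 7.05 and 7.01 in rectum, lower in each pair (-0.64 ± 0.10). Of 31 genes of keratins and brush border 4 were higher (12.9%) and 7 lower (22.6%), against 14.1% and 15.8% over all genes. Beside Plet1 and Tmigd1, the peptides guanylin, Guca2a (-1.98 ± 0.08), and uroguanylin, Guca2b (-1.30 ± 0.10), were lower. The peptidases Ace (1.48 ± 0.17) and Anpep (1.53 ± 0.27) were higher, and trehalase, Treh, was at least 4.51-fold higher and detected in rectum alone.

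Genes of squamous epithelium and skin were higher in 12 of 24 cases and lower in 4 (median 0.50). Col17a1, counted among the 12, passed the background filter through the rectum arrays alone, which all but fixed its direction. Tgm3, a cross-linker of the cornified envelope, was at -0.09, 0.22, -0.41 and 0.30 in colon and at 3.91, 3.41, 4.17 and 4.32 in rectum. Krt15 (2.57 ± 0.39), Lor (1.87 ± 0.19) and Krt14 (1.61 ± 0.24) were higher, and Col17a1 was at least 3.9-fold higher and detected in rectum alone. Sprr1a (-2.24 ± 0.22) and Krt17 (-1.85 ± 0.23) were lower, and Krt5 had pairs from 0.18 to 4.75 and was not called. The summed level of the list rose in each pair, as given above, and its part in other rises was not tested.

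Among proteases and their inhibitors, 9 of 38 were higher (23.7%) and 8 lower (21.1%), against 14.1% and 15.8% over all genes. Matrilysin, Mmp7 (-3.40 ± 0.56, above background on 2 of 4 rectum arrays), and the cystatin Cst6 (-3.20 ± 0.17) were lower. Timp3 (1.17 ± 0.12) and Tmprss2 (0.86 ± 0.14) were higher. The kallikrein Klk15 was above background on 1 of 4 colon arrays and at -1.13, -1.07, -0.77 and -0.54 in rectum, and its call did not hold without each pair. Leaving out either control pair left 5 called higher and 5 lower.

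Nerve and fat cell genes were lower. Of 20 tested genes of enteric neurons and glia 16 were lower and 1 higher (median -1.27), with the neuropeptide Gal at 1.88, 2.06, 2.09 and 2.08 in colon and at -0.60, -1.37, -0.63 and -0.27 in rectum, and Snap25 (-1.55 ± 0.11) and Stmn2 (-1.51 ± 0.17) lower. Of 15 adipocyte genes 10 were lower and 0 higher (median -1.27), with Cidec at 2.65, 2.46, 3.23 and 3.19 in colon and at -0.42, -0.70, 1.45 and 1.24 in rectum, so that the fall was larger in the WT pairs (-3.08 and -3.16) than in the IL18ko pairs (-1.78 and -1.95). In smooth muscle the contractile genes Acta2 (-0.05), Tagln (0.08) and Myh11 (0.28) were not called, while Kit, of the pacemaker cells of Cajal, was at 1.46, 1.47, 1.12 and 1.16 in colon and at -0.58, -0.62, -0.57 and -0.49 in rectum, beside Etv1 (-1.47 ± 0.15) of the same cells. Kit is also a mast cell gene. The summed level of 4 smooth muscle markers was 7.48 to 8.08 in colon and 7.66, 6.87, 8.04 and 8.15 in rectum, that of the neuron markers 3.55 to 3.79 and 1.57 to 2.10, and that of 3 fat cell markers 3.49 to 4.82 and 2.04, 2.09, 4.13 and 3.97. How deep the samples reached below the epithelium is not recorded in the labels, and its part in these differences was not tested.

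Fibroblast genes were higher in some members. Of 33 fibroblast and matrix genes 11 were higher and 2 lower, and the median of 0.31 was -0.05 in the IL18ko stress pair. Pi16 was at -2.75, -1.56, -2.56 and -1.80 in colon and at 1.36, 0.34, 1.47 and 1.86 in rectum, Mfap5 was higher by 2.07 ± 0.21 and Fbn1 by 1.44 ± 0.21, and Thbs1 was at -1.58 ± 0.13. Leaving out the WT control or the IL18ko control pair left 4 called higher. Of 21 endothelial genes 4 were higher (19.0%, against 14.1% over all genes) and 0 lower, and the number was 2 without the WT control pair, 0 without the IL18ko control pair and 7 without the WT stress pair.

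Immune cell lists moved in different directions. Macrophage and dendritic cell genes were higher in 9 of 27 cases and lower in 0. Their median of 0.67 was 0.62, 0.92, 0.68 and 0.05 in the 4 pairs, close to 0 in the IL18ko stress pair. Folr2 was at -3.02, -3.08, -2.64 and -2.21 in colon and at -0.69, -0.99, -0.28 and -0.43 in rectum. Clec10a was higher by 2.34 ± 0.27, and the Langerhans cell marker Cd207 was at least 6.99-fold higher and detected in rectum alone. Without the IL18ko control pair 5 were called. T cell and cytotoxic lymphocyte genes were lower in 10 of 24 cases and higher in 0. Their median of -0.90 was -0.45, 0.05, -1.14 and -0.98 in the 4 pairs and -0.26 with normexp, with Gzmb (-2.56 ± 0.27, above background on 3 of 4 rectum arrays), Ccl5 (-1.96 ± 0.22) and Cd7 (-1.77 ± 0.21) lower, while Cd3e (0.62), Cd4 (0.70) and Cd8b1 (0.19) were not called.

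B lineage genes were called in both directions. The antibody joining chain Jchain was at 4.79, 4.36, 3.77 and 4.79 in colon and at 1.74, 1.65, 0.98 and -0.07 in rectum, and Mzb1 was at -2.23 ± 0.25, both of plasma cells. Ms4a1 and Cxcr5 (1.22 ± 0.20), of B cells before that stage, were higher, and the call of Cxcr5 held without each pair in turn. In all 5 of 16 were higher and 6 lower. Leaving out the WT control pair left 1 higher and 3 lower, and leaving out the IL18ko control pair left 2 higher.

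Granulocyte and mast cell genes were higher in 10 of 20 cases and lower in 3, with a median of 0.90 that was 0.26 with normexp and -0.08 when probes had to be above background on all 8 arrays. The mast cell protease Cma1 was at -6.01, -5.46, -5.74 and -5.04 in colon, above background on 3 of these arrays, and at -0.21, -0.09, -0.32 and -0.19 in rectum, and Mcpt4 was higher by 0.98 ± 0.17. Mcpt1, another mast cell protease, was lower (-0.77 ± 0.20), a call that did not hold without each pair, and Tpsb2 was above background on 1 colon and 0 rectum arrays. The neutrophil genes S100a8, S100a9 and Ltf were given above. The eosinophil attractant Ccl24 was at -3.81, -4.05, -3.62 and -3.42 in colon and at -1.62, -1.29, -1.53 and -1.57 in rectum. Of 45 chemokines and cytokines 11 were higher and 7 lower (15.6%, close to the 15.8% over all genes), with a median of 0.30 that was -0.28 in the IL18ko stress pair, among them Il1rn (1.95 ± 0.14) and Il33 (1.91 ± 0.29) higher and Ccl9 (-2.54 ± 0.12), Ccl6 (-1.43 ± 0.08) and Tnf (-1.41 ± 0.19, above background on 3 of 4 rectum arrays) lower, and without the WT stress pair 14 were lower.

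Interferon-stimulated genes were lower in 16 of 41 cases and higher in 4 (median -0.18). Ifit1 was at -1.31, -1.82, -1.28 and -1.51 in colon and at -3.69, -3.72, -3.76 and -3.80 in rectum, and Oasl2 (-1.48 ± 0.11), Isg15 (-1.40 ± 0.17) and Rsad2 (-1.37 ± 0.15) were lower, while Irf1 (-0.10), Igtp (-0.04) and Oas1a (0.03) were not called. Leaving out either control pair left 10 called lower and 0 higher. Of 11 genes of antigen presentation by MHC class II only the protease Ctss was called (0.84 ± 0.12).

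Clock genes were higher in 11 of 19 cases and lower in 2 (median 0.70). Nr1d1, a repressor in the clock, was at -2.96, -2.63, -3.59 and -2.62 in colon and at 0.01, 0.22, -0.51 and 0.10 in rectum. The clock output factors Dbp (1.39 ± 0.21) and Tef (1.45 ± 0.13) and the Nr1d1 relative Nr1d2 (0.92 ± 0.13) were higher, and Nfil3, which opposes Dbp and Tef at their target sites, was at -1.97 ± 0.16. Arntl, the core activator, lay at 0.14 ± 0.12 and was not called. The labels give a single time of killing, in the morning, and no order in which the tissues were taken. Leaving out the WT control pair left 7 called higher.

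Chaperone genes were lower in 17 of 33 cases and higher in 0 (median -0.48). Hsph1 was at 4.08, 3.77, 4.51 and 3.70 in colon and at 2.33, 2.21, 2.81 and 2.15 in rectum, and the endoplasmic reticulum chaperones Hspa5 (-0.84 ± 0.09), Sdf2l1 (-0.94 ± 0.11) and Pdia6 (-0.75 ± 0.10) were lower. Without the WT control pair 11 were called lower and without the WT stress pair 23. The stress transcription factors Atf4 (-0.14) and Ddit3 (-0.09) were not called.

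Skeletal muscle and gland genes, set aside above, show how the rest compares. Of 124 tested muscle genes 46 were higher and 5 lower (median 0.66), and without the WT stress pair 70 were higher. Myh4, a fast myosin, was above background on 1 colon array, and its rectum levels were -1.52, 1.08, 5.39 and 1.80. Of 19 tested gland genes 3 were higher (15.8%) and 6 lower (31.6%), against 14.1% and 15.8% over all genes, with a median of -0.46. Without the WT control pair 3 were lower, as without the IL18ko control pair.

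**Figure D5:**
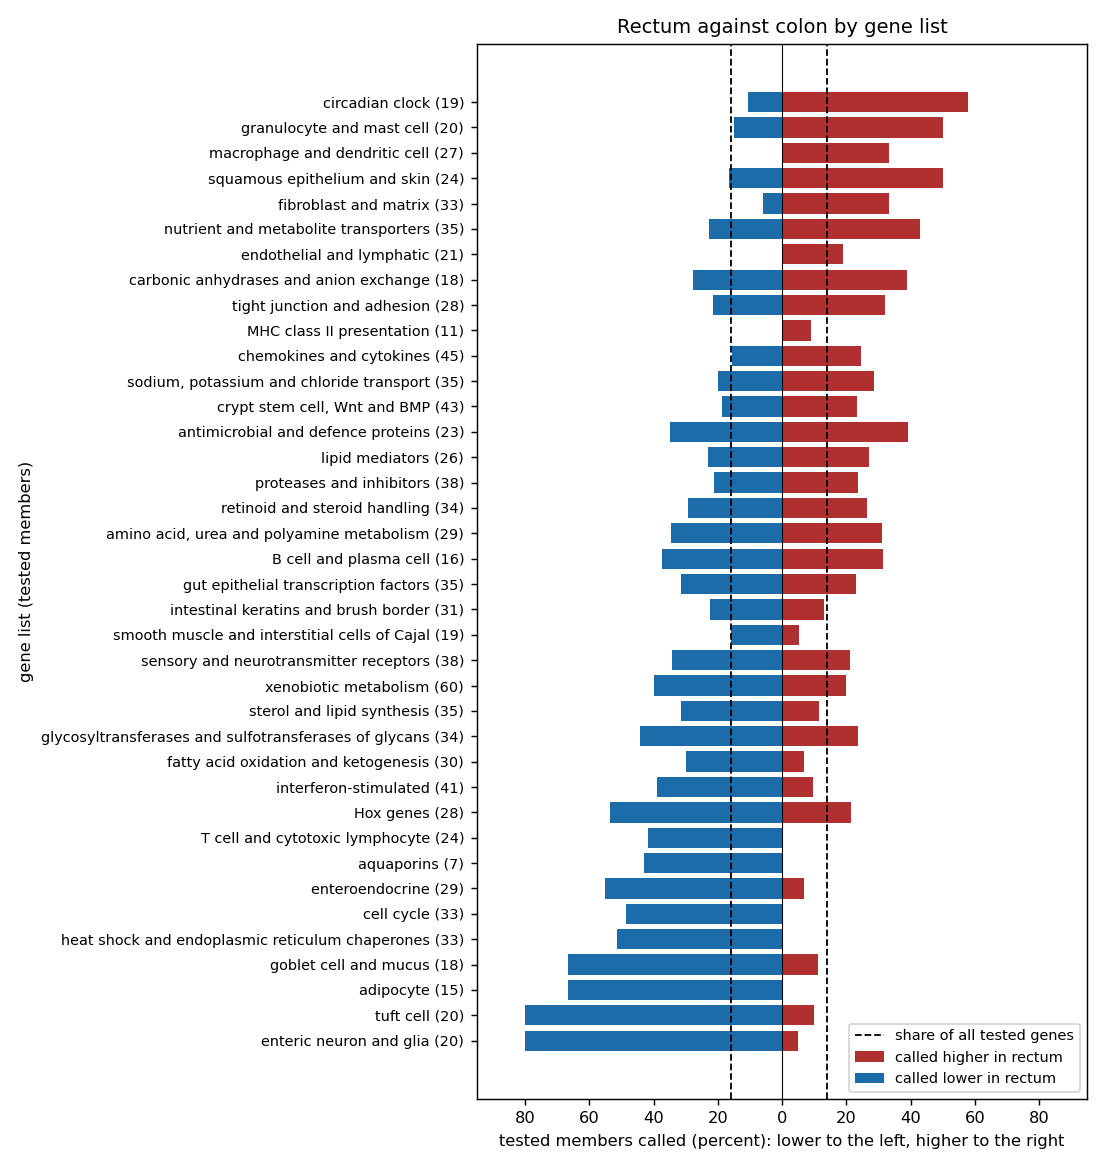
Share of the tested members of each gene list called higher (red, to the right) or lower (blue, to the left) in rectum, in percent, with the number tested in brackets and dashed lines at the shares over all genes (14.1% higher, 15.8% lower). The lists of enteric neurons and of tuft cells reach furthest to the left, with 16 of 20 lower in each, and the circadian clock, with 11 of 19 higher, furthest to the right.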

How the data were processed

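Each of the 8 arrays held 1 RNA pool of 5 mice, labelled with Cy3 and hybridised to a whole mouse genome array. The intensities were background-subtracted by Feature Extraction 9.5.1.1 per the file headers, and the deposited scanner values were not scaled between arrays. The deposited table of ratios holds values divided by the WT control colon array, per the labels, and served as an alternative. Its scaling is not given in the sources used here.

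From the processed intensities, log2 values relative to each array's 75th percentile were taken, control and outlier spots were left out, and spots of a probe were averaged. The mean rectum minus colon difference of 4 pairs was fitted across 26265 probes with limma 3.58.1 in R 4.3.3 (intercept only, variance trend, 3 residual degrees of freedom, Benjamini-Hochberg adjustment). The model was tested on simulated data: of 200 changed probes it found 38% at 1 and 90% at 2 log2 units, with 9 false among 137 calls. The simulation changed 200 of 26265 probes, against 7110 called in the data, and gave the 4 pairs an equal spread. Its rates need not hold for these data. Each tested gene was represented by its brightest probe on average, and 8384 tested probes had no gene name here. Tables were made in Python 3.11.15 (pandas 2.3.3) and figures with matplotlib 3.10.9.

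Named genes were the 15 in each direction whose smallest pair difference was largest, the 10 largest bounds in each direction among genes detected in 1 tissue, the 10 widest ranges over pairs, and, in 40 gene lists, up to 4 called members in each direction by size, with members that carry a list's question. Other list members were named after their values were seen, and some genes that the rule names are not reported here. The members and lists were chosen with earlier results of these data known. Background, scaling, filter, floor, variance trend, replicate block and each pair left out in turn were tried as alternatives. With 1 array per tissue and mouse group, genotype and housing were not tested.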

Additional observations from a re-analysis of the deposited data

Results flagged for a closer look

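Of 59 genes and 40 list medians examined over the 4 pairs, 5 had a pair set apart from the other 3, and chance alone flags about 1 in 20 groups. Ccn3 differed by -5.75 in the IL18ko control pair, a smaller size than in the others. Ugt2b5 differed by -7.73 in the WT stress pair, again the smallest in size. The median of the Hox genes was -0.37 and that of the cell cycle genes -0.053 in the WT stress pair, both nearest to 0 there. The median of the heat shock and endoplasmic reticulum chaperones was -0.71 in the WT control pair, the farthest from 0. The 5 flags among 99 items are near the share that chance alone gives. The genes examined were in part chosen by their differences over these pairs, so that share need not hold for them. Of the 5 flags, 3 fell in the WT stress pair, which holds the dimmest array, and the part of its dimness was not tested.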

How the results depend on the processing

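Directions of the called genes named in the text held under every alternative run. The total of 7110 called probes stayed within 1.5 times under other scaling, background, filter, floor and variance settings, from 4923 with the deposited ratios (18265 probes tested) to 7490 with quantile normalization. With one pair left out it ran from 3478 to 10574, with 1455 to 5338 higher and 2023 to 5236 lower, and the share higher, 48.3%, from 39.7% to 50.5%. With the deposited ratios 2208 probes were lower and the share higher was 55.1%. Genes at or above 1 log2 unit in each pair, 1051, became 562 with normexp and 695 with the deposited ratios. Asking of probes both a call and that size left 1842. Of the genes seen in 1 tissue 127 had a bound of at least 2-fold, and 46 with a floor at the 10th percentile. The paired fit was the main one, and with no replicate block 7257 probes were called. The deviations of same-group arrays correlated at 0.34, -0.09, 0.25 and 0.06, so the data do not show that the pools pair.

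Of 5257 results for 385 genes, 5055 kept direction and call, 157 lost and 20 gained a call, and 25 turned sign, all in 14 genes not called. These were Cldn7 (-0.078) and Tagln (-0.033) with quantile normalization, Acadm (0.018) and Hadh (0.015) with median centring, Acadm (0.035), Hoxc9 (-0.11) and Tff3 (0.018) with normexp, and Acadm (0.035), Hadh (0.032) and Tff3 (0.010) with the deposited ratios. With each pair left out in turn, the lowest and highest values were -0.040 and 0.048 for Acadm, -0.18 and 0.080 for Acta2, -0.099 and 0.048 for Aqp8, -0.25 and 0.081 for Atf4, -0.13 and 0.52 for Cd8b1, -0.17 and 0.051 for Ddit3, -0.023 and 0.0083 for Hadh, and -0.96 and 1.37 for Hoxc9. They were -0.0013 and 0.30 for Mcm4, -0.14 and 0.22 for Mcm6, -0.045 and 0.082 for Oas1a, and -0.081 and 0.048 for Tff3. The cause was not tested. Of 560 list medians 34 moved by more than the spread between pairs. Signal over background limits the genes seen in 1 tissue, whose sizes are bounds. With normexp the difference was more than 1.5 times smaller, with its sign kept, for Csta1 (3.34), Cphx1 (2.80), Hoxd10 (3.39), Sult1e1 (3.61), Cma1 (3.11), Klk15 (2.33), B4galnt3 (1.46), Npy1r (1.39), Mfap5 (1.21), Ms4a1 (1.17), Ace (0.96), Ascl2 (0.86), Nr1i3 (0.72), Bco1 (0.66), Muc1 (0.62), Cxcr5 (0.48), Mcpt4 (0.44) and Kcnmb2 (0.19) among genes called higher. Among those called lower it was so for Hsd17b13 (-2.58), Cst6 (-1.99), Arg2 (-1.64), Vnn1 (-1.34), Dkk2 (-1.17), Ccl5 (-1.14), Mmp7 (-1.05), Abcg4 (-0.93), Sstr2 (-0.92), Gzmb (-0.76), Wif1 (-0.74), Cd7 (-0.72), Kcnma1 (-0.53), Ptger2 (-0.51), Tnf (-0.42), Trpa1 (-0.37) and Mcpt1 (-0.15).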
